A study of Homo sapiens with 12 samples.

Results

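The G1 cyclins and CDK inhibitors were followed here through 5 siRNA knockdowns of chromatin regulators in NCCIT cells. The members are the genes CCND1, CCND2, CCND3, CCNE1, CCNE2, CDKN1A, CDKN1B, CDKN2A, CDKN2B and CDKN2C, taken by symbol. The set was chosen with earlier results of these data known. Of these 10 genes, 9 had a transcript cluster (a group of array probes that reads 1 gene) and CDKN2C was not analysed here. They stand among 18417 genes measured in all. NCCIT is an established human embryonal carcinoma cell line, a pluripotent tumour line of germ cell origin. Each of the 6 conditions had 2 Affymetrix Human Gene ST arrays, 12 in all. The cells received a non-targeting control siRNA (siNTC) or siRNA against WDR5 (siWDR5), EED (siEED), RNF2 (siRNF2), EED and RNF2 together (siEED+RNF2) or SETD2 (siSETD2). By the study's methods each target was hit by a pool of several siRNAs, transfected 24 h and 48 h after seeding, and cells were harvested at 96 h. The dual knockdown held both pools, and the methods do not describe the SETD2 transfection. The siNTC arrays alone carry a label of re-analysis, so whatever that label stands for cannot be told apart from the control condition in any comparison against siNTC.

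Cells pass from G1 into S phase when cyclin-dependent kinases inactivate the retinoblastoma protein and release the E2F transcription factors. D-type cyclins drive CDK4 and CDK6 at the start of that path, and E-type cyclins drive CDK2 near its end. The INK4 inhibitors bind CDK4 and CDK6, whereas the CIP/KIP inhibitors p21 and p27 bind whole cyclin-CDK complexes. Pluripotent cells are known for a short G1 phase. The CDKN2A and CDKN2B locus is a known target of polycomb silencing. EED is a core subunit of PRC2, which places H3K27me3, and RNF2 is the ubiquitin ligase of PRC1, which places H2AK119ub. WDR5 is a core subunit of the MLL/COMPASS complexes that place H3K4me3, and SETD2 places H3K36me3.

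The targeted genes came first as a check of the labels. On the log2 scale WDR5 was -1.21 under siWDR5 against siNTC, EED was -1.29 under siEED and -1.61 under siEED+RNF2, and SETD2 was -1.75 under siSETD2. RNF2 itself was not analysed here. EED also read -0.54 under siWDR5, -0.66 under siRNF2 and -0.42 under siSETD2 against siNTC. So it was below the control in each of the 5 knockdowns. WDR5 read 0.31 under siEED, 0.34 under siRNF2, 0.56 under siEED+RNF2 and 0.37 under siSETD2. SETD2 read -0.06 under siWDR5, -0.15 under siEED, -0.29 under siRNF2 and -0.51 under siEED+RNF2. Of 12 embryonal carcinoma markers 9 were measured, and SOX2, LIN28A, LIN28B, DPPA4, SALL4, DNMT3B, L1TD1 and ZFP42 stood at log2 levels of 10.42 or more in siNTC, with UTF1 at 7.30. POU5F1, NANOG and TDGF1, defining markers, were not analysed here. The 17 measured markers of differentiated cells had condition means between 4.17 and 7.43. None of them was called in any knockdown, beside 5.82% to 11.5% of all genes. Replicate arrays correlated at 0.996 to 0.997 over all clusters. siNTC and siSETD2 were each nearest to the other, at 0.9905, whereas the other 4 conditions reached 0.9937 to 0.9952 with their nearest condition. A log2 difference between condition means was called when limma's Benjamini-Hochberg adjusted p was under 0.05 and the fold change at least 1.5. Centring each array on its median over genes shifted siRNF2 by 0.128 against siNTC and turned its split of called genes from 1174 higher and 701 lower to 775 higher and 1253 lower. The same centring turned 688 higher and 485 lower into 502 higher and 730 lower in siEED, and 1011 higher and 1109 lower into 770 higher and 1414 lower in siEED+RNF2. The labels do not say whether replicate arrays came from separate cultures. So p-values reflect only how far arrays of the same condition lay apart, pooled over the 6 conditions and moderated over all genes. Having 2 arrays per condition limits the precision.

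CCND1 and CCND2 were the D-type cyclins that moved. CCND1 was higher than siNTC on all 10 knockdown arrays, and CCND2 was higher in 4 knockdowns and lower in siSETD2. CCND3 was called in none. CCND1, the gene of cyclin D1, read 8.28 and 8.21 in siNTC, 9.93 and 9.76 in siWDR5, 8.82 and 8.84 in siEED, 8.96 and 8.92 in siRNF2, 9.05 and 9.09 in siEED+RNF2, and 9.25 and 9.27 in siSETD2. The siWDR5 arrays were the highest and the siNTC arrays the lowest, and no knockdown array overlapped the control. CCND1 rose by 1.60 (SE 0.07, 95% interval 1.45 to 1.75, adjusted p = 8.1e-08) in siWDR5, a 3.02-fold change. Among 18417 genes it ranked 17 from the top in that comparison. It rose by 1.01 (adjusted p = 1.2e-06) in siSETD2, by 0.82 (adjusted p = 1.8e-06) in siEED+RNF2 and by 0.70 (adjusted p = 9.0e-06) in siRNF2. In siEED the difference of 0.58 (95% interval 0.43 to 0.73, adjusted p = 5.6e-05) lay just under the fold limit. That difference became a call at 0.62 without siNTC replicate 1 and at 0.60 without siEED replicate 1, while the siRNF2 difference lost its call at 0.57 with arrays centred on the median over genes.

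From the top, the order of CCND1 levels was siWDR5, siSETD2, siEED+RNF2, siRNF2, siEED and siNTC. siWDR5 stood above siSETD2 by 0.58 (adjusted p = 6.4e-05), short of the fold limit, although the arrays did not overlap, and was called without siWDR5 replicate 2 (-0.67 for siSETD2 against siWDR5) or siSETD2 replicate 2 (-0.60). The neighbouring steps from siEED+RNF2 to siRNF2 (0.13, adjusted p = 0.24) and from siRNF2 to siEED (0.11, adjusted p = 0.37) did not pass the test. Since siNTC is the lowest condition, the direction of every CCND1 difference against it rests on those 2 arrays. With the mean of the knockdowns that share no target as the reference in place of siNTC, the siWDR5 difference was 0.82, the siSETD2 difference 0.09, and those of siEED, siRNF2 and siEED+RNF2 turned to -0.52, -0.37 and -0.48, each short of the fold limit.

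CCND2, the gene of cyclin D2, read 10.77 and 10.74 in siNTC, 11.60 and 11.45 in siWDR5, 11.45 and 11.43 in siEED, 11.82 and 11.76 in siRNF2, 11.65 and 11.71 in siEED+RNF2, and 9.75 and 9.83 in siSETD2. All 8 arrays of the WDR5 and polycomb knockdowns were above the control arrays, and both siSETD2 arrays were below them. The rise was 1.04 (SE 0.07, 95% interval 0.89 to 1.18, adjusted p = 4.1e-07) in siRNF2, 0.92 (adjusted p = 7.1e-07) in siEED+RNF2, 0.77 (adjusted p = 9.1e-06) in siWDR5 and 0.68 (adjusted p = 1.7e-05) in siEED. In siSETD2 CCND2 was -0.97 against siNTC (95% interval -1.11 to -0.82, adjusted p = 1.5e-06), or 51.2% of the control level. CCND2 was the only member called in all 5 knockdowns against siNTC. With the other knockdowns as the reference the siWDR5 and siEED calls were lost at 0.35 and 0.40, and the remaining 3 kept their direction and call. siNTC stood between the groups for this gene, and each step beside it in the order of levels was called. The steps among siRNF2, siEED+RNF2, siWDR5 and siEED, from 0.09 to 0.16, did not pass the test (adjusted p from 0.11 to 0.43), although siRNF2 and siEED at the ends of that run differed by 0.35 (adjusted p = 0.0067), short of the fold limit.

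CCND3, the gene of cyclin D3, read 8.84 and 8.89 in siNTC and lay between 8.65 and 9.11 over all 12 arrays. Its differences from siNTC ran from -0.18 in siRNF2 (95% interval -0.34 to -0.03, adjusted p = 0.052) to 0.21 in siSETD2 (95% interval 0.05 to 0.36, adjusted p = 0.044). None reached the fold limit, and every interval excluded a change of 1.5-fold.

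**Figure D1:**
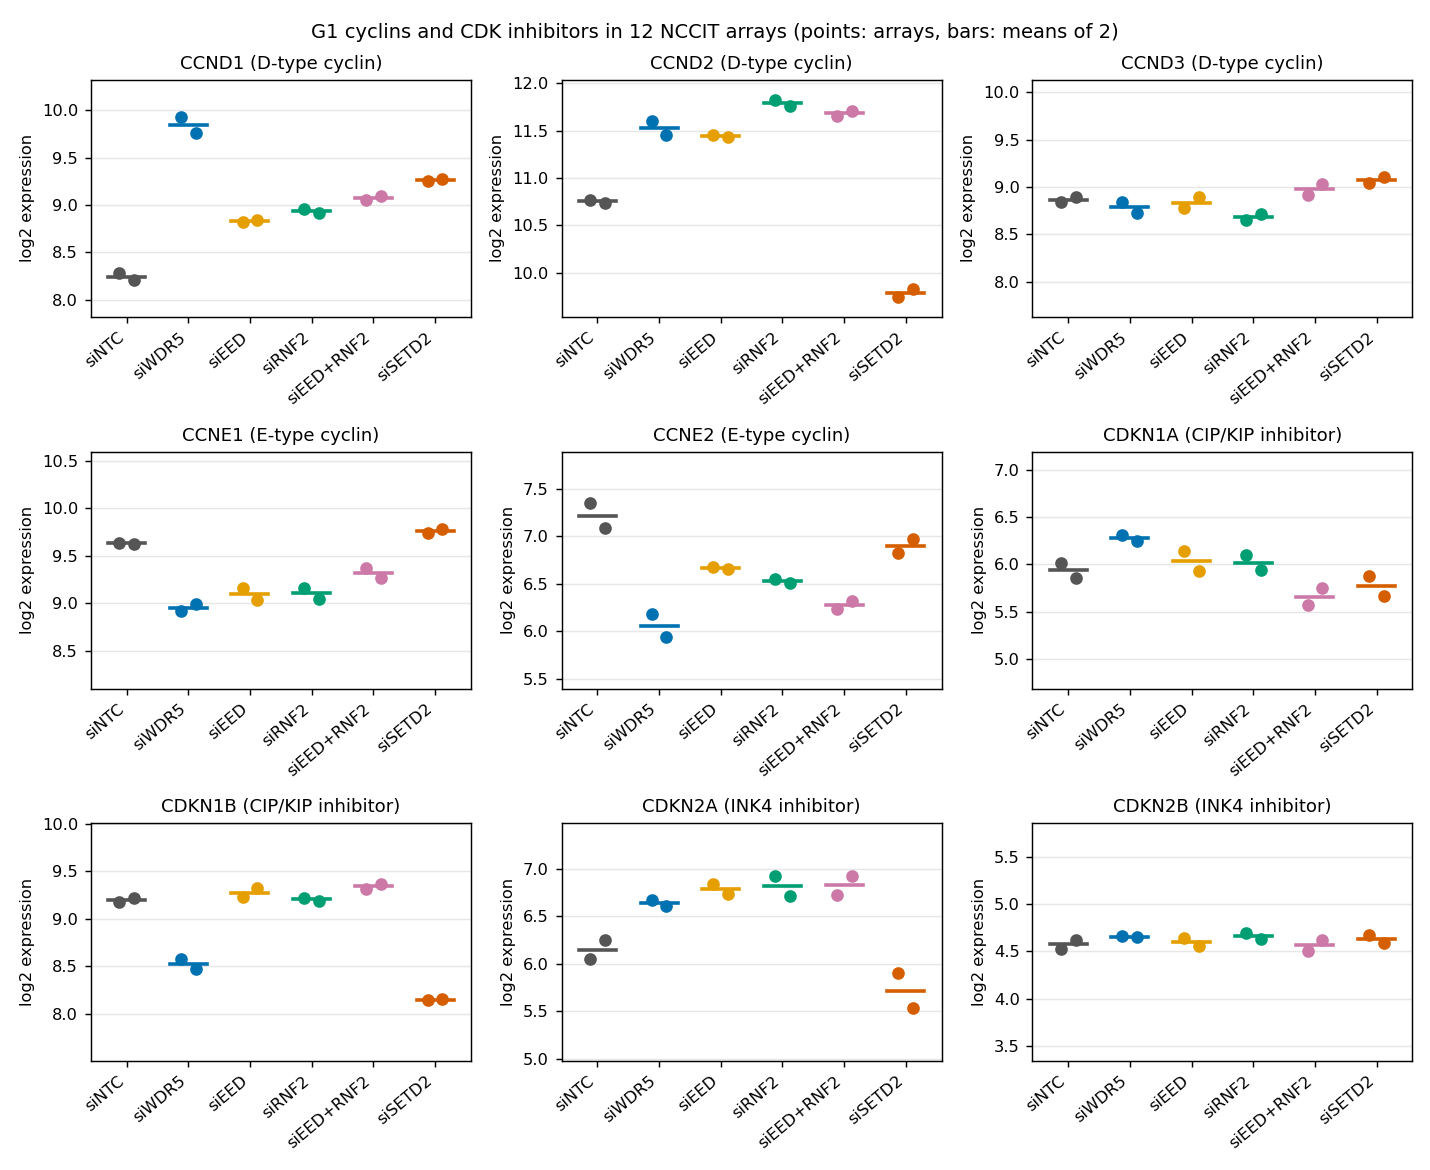
Log2 expression (vertical axis) of the 9 measured G1 cyclins and CDK inhibitors in the 6 conditions (horizontal axis), with a point for each array and a bar for the mean of 2. All panels span the same log2 range, so vertical distances compare between genes but levels do not. CCND1 is lowest in siNTC at 8.28 and 8.21, and CCND2 and CDKN1B have their lowest arrays in siSETD2, at 9.75 and 8.14.

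The E-type cyclins fell wherever they were called against siNTC, CCNE1 in siWDR5 and CCNE2 in siWDR5, siRNF2 and siEED+RNF2. CCNE1, the gene of cyclin E1, read 9.64 and 9.63 in siNTC, 8.92 and 8.99 in siWDR5, 9.16 and 9.04 in siEED, 9.16 and 9.05 in siRNF2, 9.37 and 9.27 in siEED+RNF2, and 9.74 and 9.78 in siSETD2. The arrays of siWDR5 and of the 3 polycomb knockdowns were all below the control arrays, and those of siSETD2 were just above. CCNE1 was called in siWDR5 at -0.68 (SE 0.07, 95% interval -0.83 to -0.53, adjusted p = 2.5e-05). It was -0.53 in both siEED (adjusted p = 1.3e-04) and siRNF2 (adjusted p = 7.9e-05) and -0.31 in siEED+RNF2 (adjusted p = 0.0032), all short of the fold limit. The siEED and siRNF2 differences became calls at -0.61 and -0.66 with arrays centred on the median over genes, and at -0.59 each without replicate 1 of their own condition. In siSETD2 the difference was 0.13 (95% interval -0.03 to 0.28, adjusted p = 0.19). With the other knockdowns as the reference, the CCNE1 call in siWDR5 was lost at -0.37 and siSETD2 gained one at 0.64.

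CCNE2, the gene of cyclin E2, read 7.35 and 7.09 in siNTC, 6.18 and 5.94 in siWDR5, 6.68 and 6.66 in siEED, 6.55 and 6.51 in siRNF2, 6.24 and 6.32 in siEED+RNF2, and 6.83 and 6.97 in siSETD2. Every knockdown array lay below both control arrays. CCNE2 was called at -1.16 (SE 0.10, 95% interval -1.37 to -0.94, adjusted p = 7.4e-06) in siWDR5, at -0.94 (adjusted p = 1.2e-05) in siEED+RNF2 and at -0.68 (adjusted p = 1.6e-04) in siRNF2. The differences of -0.54 in siEED (adjusted p = 0.0012) and -0.32 in siSETD2 (adjusted p = 0.029) were short of the fold limit. The siRNF2 call was lost at -0.55 without siNTC replicate 1, and siEED gained one at -0.67 without siNTC replicate 2 and at -0.62 with centred arrays. With the other knockdowns as the reference, the difference was -0.54 in siWDR5, -0.20 in siEED+RNF2 and -0.01 in siRNF2, all without a call, and it turned to 0.17 in siEED and 0.52 in siSETD2. In the order of levels no neighbouring step below siNTC passed the adjusted p threshold, apart from that between siNTC and siSETD2.

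Of the CIP/KIP inhibitors, CDKN1B fell in siWDR5 and siSETD2, and CDKN1A was called in no knockdown against siNTC. CDKN1B encodes p27, an inhibitor of CDK2 complexes. It read 9.18 and 9.22 in siNTC, 8.58 and 8.47 in siWDR5, 9.23 and 9.32 in siEED, 9.22 and 9.19 in siRNF2, 9.31 and 9.37 in siEED+RNF2, and 8.14 and 8.15 in siSETD2. The arrays of siSETD2 were the lowest, those of siWDR5 came next, and the remaining 8 lay within 9.18 to 9.37. CDKN1B was -1.05 in siSETD2 (SE 0.06, 95% interval -1.19 to -0.91, adjusted p = 5.6e-07), or 48.2% of the control level, and -0.67 in siWDR5 (95% interval -0.81 to -0.53, adjusted p = 1.7e-05). In the polycomb knockdowns its differences were 0.07, 0.01 and 0.14 for siEED, siRNF2 and siEED+RNF2, and the widest interval ended at 0.28. siSETD2 was also below siWDR5, by 0.38 (adjusted p = 7.9e-04), short of the fold limit. With the other knockdowns as the reference, CDKN1B became a call at 0.65 in siEED and 1.00 in siEED+RNF2, kept it at -0.94 in siSETD2 and lost it at -0.46 in siWDR5.

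CDKN1A encodes p21, an inhibitor that p53 induces. It read 6.02 and 5.86 in siNTC, 6.31 and 6.25 in siWDR5, 6.14 and 5.93 in siEED, 6.10 and 5.94 in siRNF2, 5.57 and 5.75 in siEED+RNF2, and 5.88 and 5.67 in siSETD2. The siWDR5 arrays stood above the control arrays and the siEED+RNF2 arrays below them, while those of siEED, siRNF2 and siSETD2 overlapped them. The difference was 0.34 (95% interval 0.11 to 0.57, adjusted p = 0.024) in siWDR5 and -0.28 (95% interval -0.50 to -0.05, adjusted p = 0.049) in siEED+RNF2, both short of the fold limit. Set directly against each other, siEED+RNF2 was called lower than siWDR5 at -0.62 (adjusted p = 7.0e-04), a call that was lost at -0.58 without siWDR5 replicate 1 and at -0.53 without siEED+RNF2 replicate 1.

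Of the INK4 inhibitors, CDKN2A was called higher in the polycomb knockdowns and read higher short of a call in siWDR5. CDKN2B was called in none. CDKN2A encodes the CDK4 and CDK6 inhibitor p16INK4a and, from an upstream start site and another reading frame, the MDM2 inhibitor p14ARF. The platform annotation lists transcripts of both for the single CDKN2A cluster, so the transcripts cannot be told apart. CDKN2A read 6.05 and 6.25 in siNTC, 6.67 and 6.61 in siWDR5, 6.84 and 6.74 in siEED, 6.92 and 6.71 in siRNF2, 6.73 and 6.93 in siEED+RNF2, and 5.90 and 5.53 in siSETD2. The 8 arrays of siWDR5 and the polycomb knockdowns were above the control arrays and the siSETD2 arrays were below them. The rise was 0.64 (SE 0.12, 95% interval 0.37 to 0.90, adjusted p = 0.0019) in siEED, 0.66 (adjusted p = 0.001) in siRNF2 and 0.68 (adjusted p = 8.1e-04) in siEED+RNF2. In siWDR5 it was 0.49 (adjusted p = 0.009) and in siSETD2 -0.44 (95% interval -0.71 to -0.17, adjusted p = 0.018), both short of the fold limit. Set directly against siWDR5, the polycomb knockdowns did not pass the test. CDKN2A differed there by 0.15 in siEED (adjusted p = 0.48), 0.17 in siRNF2 (adjusted p = 0.34) and 0.19 in siEED+RNF2 (adjusted p = 0.3).

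The 3 CDKN2A calls stood close to the fold limit. With arrays centred on the median over genes the siEED and siRNF2 calls were lost at 0.56 and 0.53. Without siNTC replicate 1 all 3 were lost, at 0.54 under siEED, 0.56 under siRNF2 and 0.58 under siEED+RNF2. They were also lost without siEED replicate 1 (0.58), siRNF2 replicate 1 (0.56) and siEED+RNF2 replicate 2 (0.58) in those knockdowns. siWDR5 gained a call at 0.59 without siNTC replicate 2, and siSETD2 at -0.62 without siSETD2 replicate 1. With the other knockdowns as the reference, the siEED and siRNF2 calls were lost at 0.40 and 0.43 and siSETD2 gained one at -1.05. The direction held in each of these.

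CDKN2B, the neighbouring gene that encodes p15, read 4.53 and 4.62 in siNTC and lay between 4.51 and 4.69 over all 12 arrays. Its differences from siNTC ran from -0.01 to 0.09, and the 95% intervals from -0.16 to 0.23. Its mean was among the dimmest 30% of genes, and the deposited table holds no detection call to show whether such a level is above background. Of the genes beside CDKN2A and CDKN2B, MTAP, DMRTA1, KLHL9 and IFNE were called in no knockdown. ELAVL2 was called in siEED+RNF2 alone, at -0.59.

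**Figure D2:**
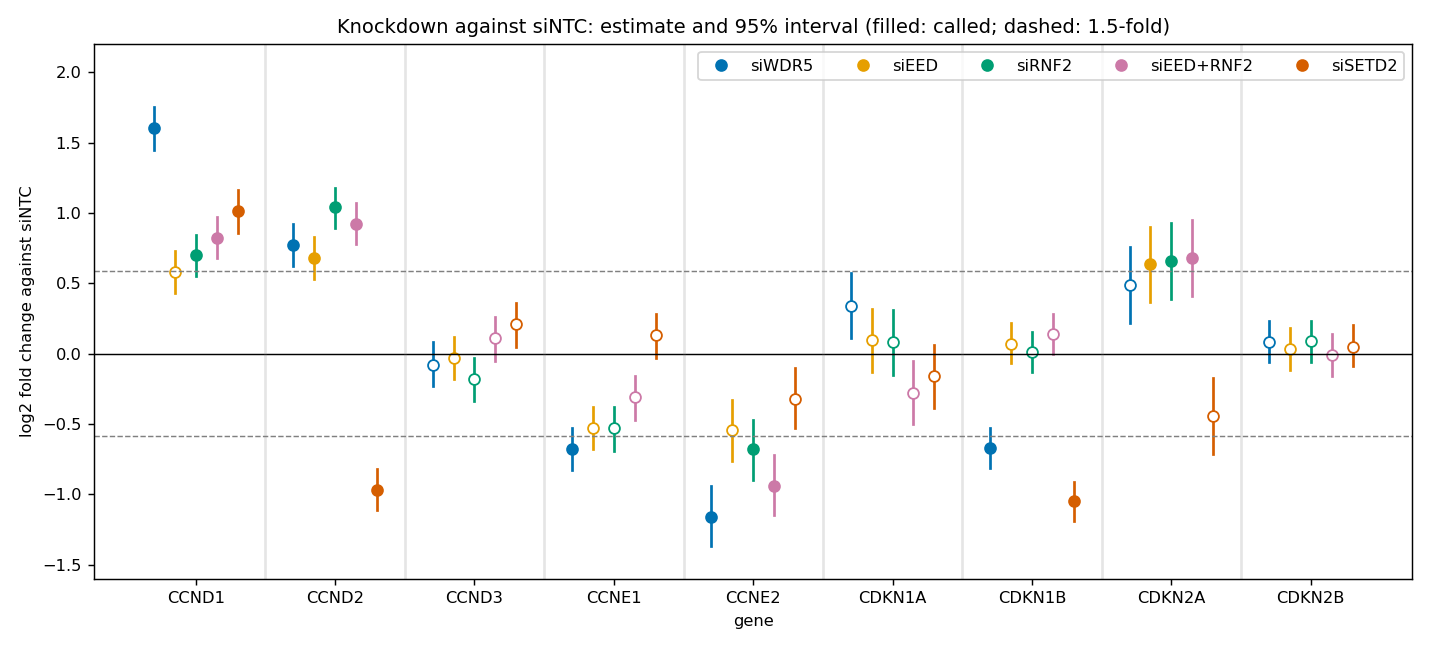
Differences from siNTC as log2 fold change (vertical axis) for the 9 measured members (horizontal axis) in each of the 5 knockdowns, with 95% intervals from limma. Filled points were called, and the dashed lines mark the 1.5-fold limit. CCND1 is above 0 in every knockdown, from 0.58 to 1.60, CCNE2 is below 0 in every knockdown, from -1.16 to -0.32, and CCND2 runs from 1.04 in siRNF2 to -0.97 in siSETD2.

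Of the called members, CCNE1, CDKN1B and CDKN2A had promoter windows analysed here, from RefSeq's promoter table for GRCh38.p14. The 250 bases before their start sites are printed for the regulatory letters they carry. Of the 10 members, 7 had a window analysed here. Capitals mark GGGCGG, the GC box bound by SP1, on either strand. CDKN2A has 2 windows on the minus strand, chr9:21974858-21975107 before the p16INK4a start and chr9:21995325-21995574 before the upstream start that p14ARF uses. CDKN1B lies on the plus strand at chr12:12717118-12717367, and CCNE1 on the plus strand at chr19:29811741-29811990.
CDKN2A, p16INK4a start: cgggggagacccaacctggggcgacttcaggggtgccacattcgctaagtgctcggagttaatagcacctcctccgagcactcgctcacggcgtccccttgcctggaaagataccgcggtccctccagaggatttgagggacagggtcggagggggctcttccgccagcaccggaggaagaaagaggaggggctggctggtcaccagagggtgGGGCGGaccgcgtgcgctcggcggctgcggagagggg
CDKN2A, p14ARF start: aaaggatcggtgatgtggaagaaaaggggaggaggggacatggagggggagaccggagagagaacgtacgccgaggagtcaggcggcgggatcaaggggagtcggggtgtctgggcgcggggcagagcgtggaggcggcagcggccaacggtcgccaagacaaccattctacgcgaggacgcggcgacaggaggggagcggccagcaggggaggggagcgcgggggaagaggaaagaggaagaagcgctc
CDKN1B: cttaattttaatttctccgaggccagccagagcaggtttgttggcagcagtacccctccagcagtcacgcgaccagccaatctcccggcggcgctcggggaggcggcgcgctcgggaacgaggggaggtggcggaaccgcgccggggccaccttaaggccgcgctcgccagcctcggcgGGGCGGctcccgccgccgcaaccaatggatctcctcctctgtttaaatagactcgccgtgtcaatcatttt
CCNE1: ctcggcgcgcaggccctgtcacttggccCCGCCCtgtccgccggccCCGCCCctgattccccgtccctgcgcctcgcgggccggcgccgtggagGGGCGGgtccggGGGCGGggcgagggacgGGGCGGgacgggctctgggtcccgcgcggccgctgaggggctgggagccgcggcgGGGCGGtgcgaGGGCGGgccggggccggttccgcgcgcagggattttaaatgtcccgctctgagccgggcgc

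The CCNE1 window held 7 copies of GGGCGG and the CDKN1B window 1. In CDKN2A the p16INK4a window held 1 copy and the p14ARF window 0. Of 34788 promoter windows of the same length, 42.6% held at least 1 copy. All 4 windows were richer in G and C than the median window at 58.0%, with 66.8% for each CDKN2A window, 64.4% for CDKN1B and 81.2% for CCNE1. They held 20, 24, 27 and 39 CpG dinucleotides in that order, against a median of 11. The E2F motifs TTTCGCGC (0.428% of all windows) and TTTGGCGC (0.549%), the CEBP/ATF motif TGATGNAA (3.16%), the AP-1 motif TGACTCA (4.21%) and the E box CACGTG (6.31%) were searched on both strands and had no match in these 4 windows.

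Counted by knockdown, siWDR5 called the most members. In siWDR5 5 of 9 measured members were called, with CCND1 and CCND2 higher and CCNE1, CCNE2 and CDKN1B lower, beside 6.02% of all genes called (2.8% higher and 3.22% lower). siEED called 2 of 9, CCND2 and CDKN2A, both higher, beside 6.37% of all genes (3.74% higher and 2.63% lower). siRNF2 called 4 of 9, with CCND1, CCND2 and CDKN2A higher and CCNE2 lower, beside 10.2% of all genes (6.37% higher and 3.81% lower). siEED+RNF2 called the same 4 genes in the same directions, beside 11.5% of all genes (5.49% higher and 6.02% lower). These comparisons share the siNTC arrays, so their overlap is not independent. In siSETD2 3 of 9 were called, with CCND1 higher and CCND2 and CDKN1B lower, beside 5.82% of all genes (2.64% higher and 3.18% lower). The median difference of the 9 members ran from -0.16 in siSETD2 to 0.11 in siEED+RNF2, beside -0.04 to -0.01 for the medians of all genes. With arrays centred on the median over genes, siEED and siRNF2 each called 3 members, CCND2 higher and CCNE1 and CCNE2 lower. Of all 18417 genes, that setting called 502 higher and 730 lower in siEED, and 775 higher and 1253 lower in siRNF2.

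The dual knockdown was set beside the single knockdowns to see whether loss of both complexes moved the members further. Against siEED 0 of 9 members were called beside 2.91% of all genes, with 5 at an unadjusted p under 0.05, and 4 of these passed the adjusted p. Those 4 were CCND1 and CCND2 at 0.24 each, CCNE2 at -0.40 and CDKN1A at -0.37, with adjusted p from 0.02 to 0.036. Against siRNF2 0 of 9 were called beside 3.27% of all genes, with 4 at an unadjusted p under 0.05 and 2 past the adjusted p, CCND3 at 0.29 (adjusted p = 0.013) and CDKN1A at -0.36 (adjusted p = 0.033). For CDKN2A the dual knockdown differed from siEED by 0.04 (95% interval -0.23 to 0.31) and from siRNF2 by 0.02 (95% interval -0.25 to 0.29), so a further change of 1.5-fold lay outside both intervals.

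The interaction term, the dual difference minus the sum of the single differences, called 3 of 9 members beside 11.3% of all genes. CCND2 had single differences that summed to 1.72 and a dual difference of 0.92, an interaction of -0.79 (SE 0.10, adjusted p = 1.0e-04). CCNE1 had a sum of -1.06 and a dual difference of -0.31, an interaction of 0.75 (SE 0.10, adjusted p = 1.8e-04). CDKN2A had a sum of 1.30 and a dual difference of 0.68, an interaction of -0.62 (SE 0.17, adjusted p = 0.018). In each the dual difference was smaller in size than the sum. CCND1 had a sum of 1.28 and a dual difference of 0.82, and its interaction of -0.45 (adjusted p = 0.0039) was short of the fold limit. The CDKN2A interaction lost its call at -0.49 with centred arrays, at -0.52 without siNTC replicate 1 or siEED+RNF2 replicate 1, at -0.57 without siEED replicate 1 and at -0.51 without siRNF2 replicate 1. The siNTC arrays enter this term too, and the dual transfection carried more siRNA than the single ones, so pool load and a second target cannot be told apart.

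**Figure D3:**
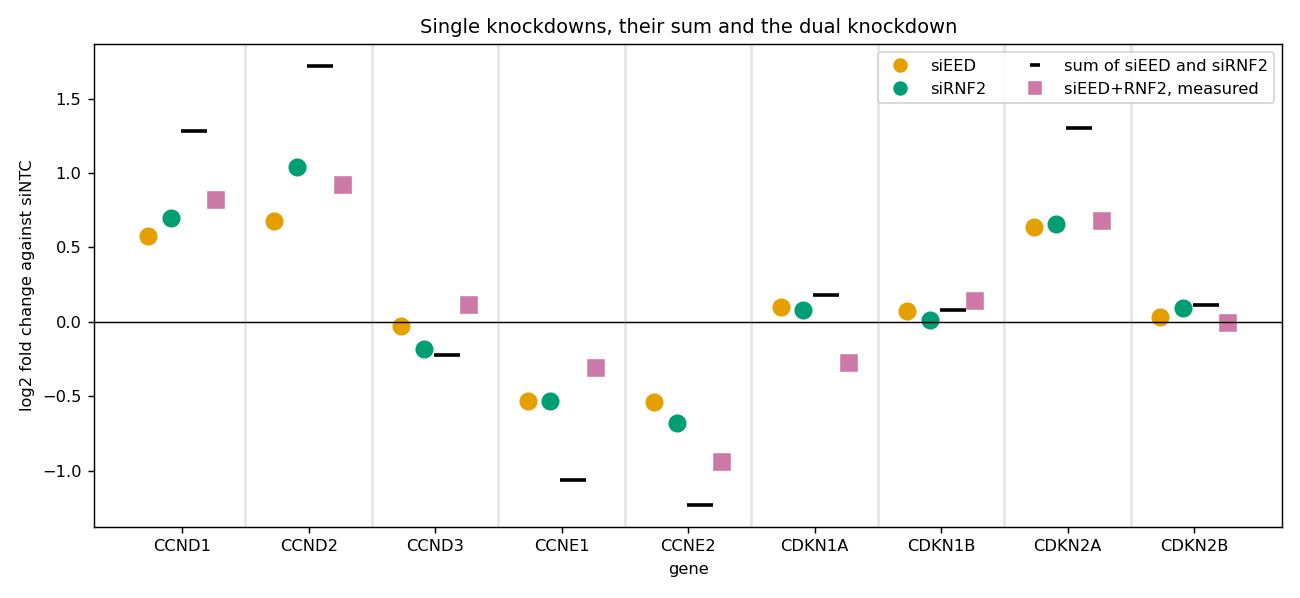
Differences from siNTC as log2 fold change (vertical axis) for each measured member (horizontal axis), in siEED and siRNF2 (circles), their sum (black bars) and the measured value in siEED+RNF2 (squares). The squares of CCND2 and CDKN2A at 0.92 and 0.68 lie near the single knockdowns and under their sums of 1.72 and 1.30.

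The members separated siSETD2 from the other knockdowns in differences that hold no siNTC array. The siNTC arrays enter only the spread behind the p-values. Against siWDR5 4 of 9 members were called beside 5.84% of all genes, against siEED 4 beside 6.28%, against siRNF2 4 beside 8.67% and against siEED+RNF2 4 beside 10.4%. CCND2 was lower in siSETD2 in all 4 comparisons, from -1.65 against siEED to -2.00 against siRNF2 (adjusted p = 2.3e-09), the latter to 0.25 of the siRNF2 level. CDKN2A was also lower in all 4, from -0.93 against siWDR5 (adjusted p = 1.5e-04) to -1.12 against siEED+RNF2 (adjusted p = 2.0e-05). CDKN1B was lower than in each polycomb knockdown, from -1.06 to -1.20. CCNE1 was higher than in siWDR5 by 0.81, and than in siEED and siRNF2 by 0.66 each. CCNE2 was higher than in siWDR5 by 0.84 and than in siEED+RNF2 by 0.62, the latter lost at 0.56 without siSETD2 replicate 2. These 4 comparisons share the siSETD2 arrays.

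Against the polycomb knockdowns siWDR5 stood out in CCND1 and CDKN1B. siEED called 3 of 9 members against siWDR5 beside 3.33% of all genes, siRNF2 2 beside 5.93% and siEED+RNF2 3 beside 7.02%. CCND1 was lower there than in siWDR5, at -1.01 for siEED, -0.90 for siRNF2 and -0.77 for siEED+RNF2 (adjusted p from 2.7e-06 to 6.7e-06). CDKN1B was higher by 0.74, 0.68 and 0.81 (adjusted p from 3.3e-06 to 1.6e-05), and with centred arrays the siRNF2 value of 0.55 was no longer called. CCNE2 was higher in siEED than in siWDR5 by 0.61 (adjusted p = 0.0011), a call lost at 0.49 without siWDR5 replicate 2 and at 0.53 with centred arrays. siRNF2 against siEED called 0 of 9 beside 1.26% of all genes, with CCND2 the 1 member at an unadjusted p under 0.05.

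The genes whose pattern over the 12 arrays was most like each called member were listed by Pearson's r, as a description over arrays that share 6 conditions. For CCND1 these were PAPSS1 (r = 0.980), CPT1A (r = 0.977) and FZD7 (r = 0.959). CPT1A, the carnitine palmitoyltransferase of fatty acid oxidation, had a condition mean of 8.06 in siNTC, its lowest, and 9.16 in siWDR5, its highest. For CCND2 they were EIF4EBP1 (r = 0.980), SOX21 (r = 0.979) and ZNF266 (r = 0.977). EIF4EBP1, a repressor of cap-dependent translation, ran from 8.86 in siSETD2 to 10.60 in siRNF2. SOX21, a SOX family transcription factor, was also nearest to CDKN2A (r = 0.967), followed by DTD1 (r = 0.965) and AMOT (r = 0.964). CCND2 and CDKN2A themselves correlated at 0.95. For CDKN1B they were HLA-DMA (r = 0.978), MED14 (r = 0.975) and H4C8 (r = 0.967). CCNE1 was nearest to SRPRA (r = 0.975), GINS1 (r = 0.974), a subunit of the replicative helicase, and NUP37 (r = 0.971), and CCNE2 to CYYR1 (r = 0.960), FAM136A (r = 0.952) and TMBIM6 (r = 0.951).

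The other genes of the G1 path were read against the called share among every gene measured. That share was lowest in siSETD2, at 5.82%, and highest in siEED+RNF2, at 11.5%. The first list held 16 genes: CDKs, other CDK inhibitors and further CDK-related genes. In it CKS2 was called higher in siWDR5 (0.62), CDC25A, the phosphatase that activates CDK2, lower in siEED (-0.61), and CABLES1 lower in siSETD2 (-1.13). CDK4 and CDK6, partners of the D-type cyclins, and CDK2, partner of the E-type cyclins, were called in no knockdown. Short of the fold limit, CDK4 read -0.25 to -0.30 in siWDR5, siEED, siRNF2 and siEED+RNF2 (adjusted p from 0.0044 to 0.012). CDK6 read 0.26 in siEED (adjusted p = 0.015) and 0.44 in siRNF2 (adjusted p = 5.3e-04), also short of the limit. CDK2 read -0.30 under siWDR5, -0.47 under siEED, -0.52 under siRNF2, -0.38 under siEED+RNF2 and -0.07 under siSETD2 against siNTC. Its adjusted p was 0.48 in siSETD2 and ran from 5.5e-05 to 0.0039 in the others. The INK4 gene CDKN2D and the CIP/KIP gene CDKN1C lay within -0.21 to 0.21 in all 5. Of 15 other cyclins none was called in any knockdown. Whether lists this short depart from the share among every gene measured was not tested.

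Of 18 genes of the RB and E2F family, 3 were called in siWDR5, 2 under siEED, 3 under siRNF2, 3 under siEED+RNF2 and 0 under siSETD2. The shares of all genes called were 6.02%, 6.37%, 10.2%, 11.5% and 5.82% in that order. E2F5, a repressor E2F, rose by 0.73 under siWDR5, 0.67 under siEED, 0.87 under siRNF2 and 0.90 under siEED+RNF2, and read 0.39 under siSETD2. RBL1, the p107 pocket protein, rose by 0.74, 0.59 and 0.64 in siWDR5, siEED and siRNF2. E2F6 rose by 0.65 under siWDR5, and E2F2 by 0.61 under siRNF2 and 0.73 under siEED+RNF2. LIN9, a subunit of the DREAM and MuvB complexes, was the 1 gene called lower, at -0.93 in siEED+RNF2. RB1, the gene of the retinoblastoma protein, was called in none and ran from -0.50 in siEED+RNF2 to 0.23 in siRNF2.

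Of 24 E2F targets of the G1/S transition, TK1, thymidine kinase, was called at -0.60 under siWDR5, -0.62 under siEED and -0.72 under siRNF2. GINS2, a subunit of the replicative helicase, rose by 0.68 under siEED, 0.62 under siRNF2, 0.79 under siEED+RNF2 and 0.66 under siSETD2. It read 0.58 under siWDR5, short of the fold limit. RFC4 was called at 0.67 under siRNF2, and read 0.42 under siWDR5, 0.53 under siEED, 0.50 under siEED+RNF2 and 0.24 under siSETD2. The other 21 were called in no knockdown, and the list medians lay between -0.11 and 0.08. Of 16 mitotic cyclins, kinases and other mitotic regulators, CDC25B was -0.71 under siWDR5 and -0.61 under siSETD2. The checkpoint kinases BUB1 and BUB1B were both lower in siRNF2, at -0.66 and -0.64, and in the dual knockdown, at -0.65 and -0.60. Another list held 15 genes of ubiquitin ligases and deubiquitinases that act on G1 regulators. In it FBXO4, an F-box protein reported to act on cyclin D1, rose by 0.86 under siEED, 1.27 under siRNF2 and 1.00 under siEED+RNF2. SKP2, the F-box protein that targets p27, was called at -0.61 under siRNF2 and -0.59 under siEED+RNF2. It read -0.57 under siWDR5 and -0.58 under siEED, just short of the fold limit, and -0.16 under siSETD2. CDKN1B read 0.01 under siRNF2, 0.14 under siEED+RNF2, -0.67 under siWDR5, 0.07 under siEED and -1.05 under siSETD2. USP28, a deubiquitinase, was -0.72 in siSETD2.

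**Figure D4:**
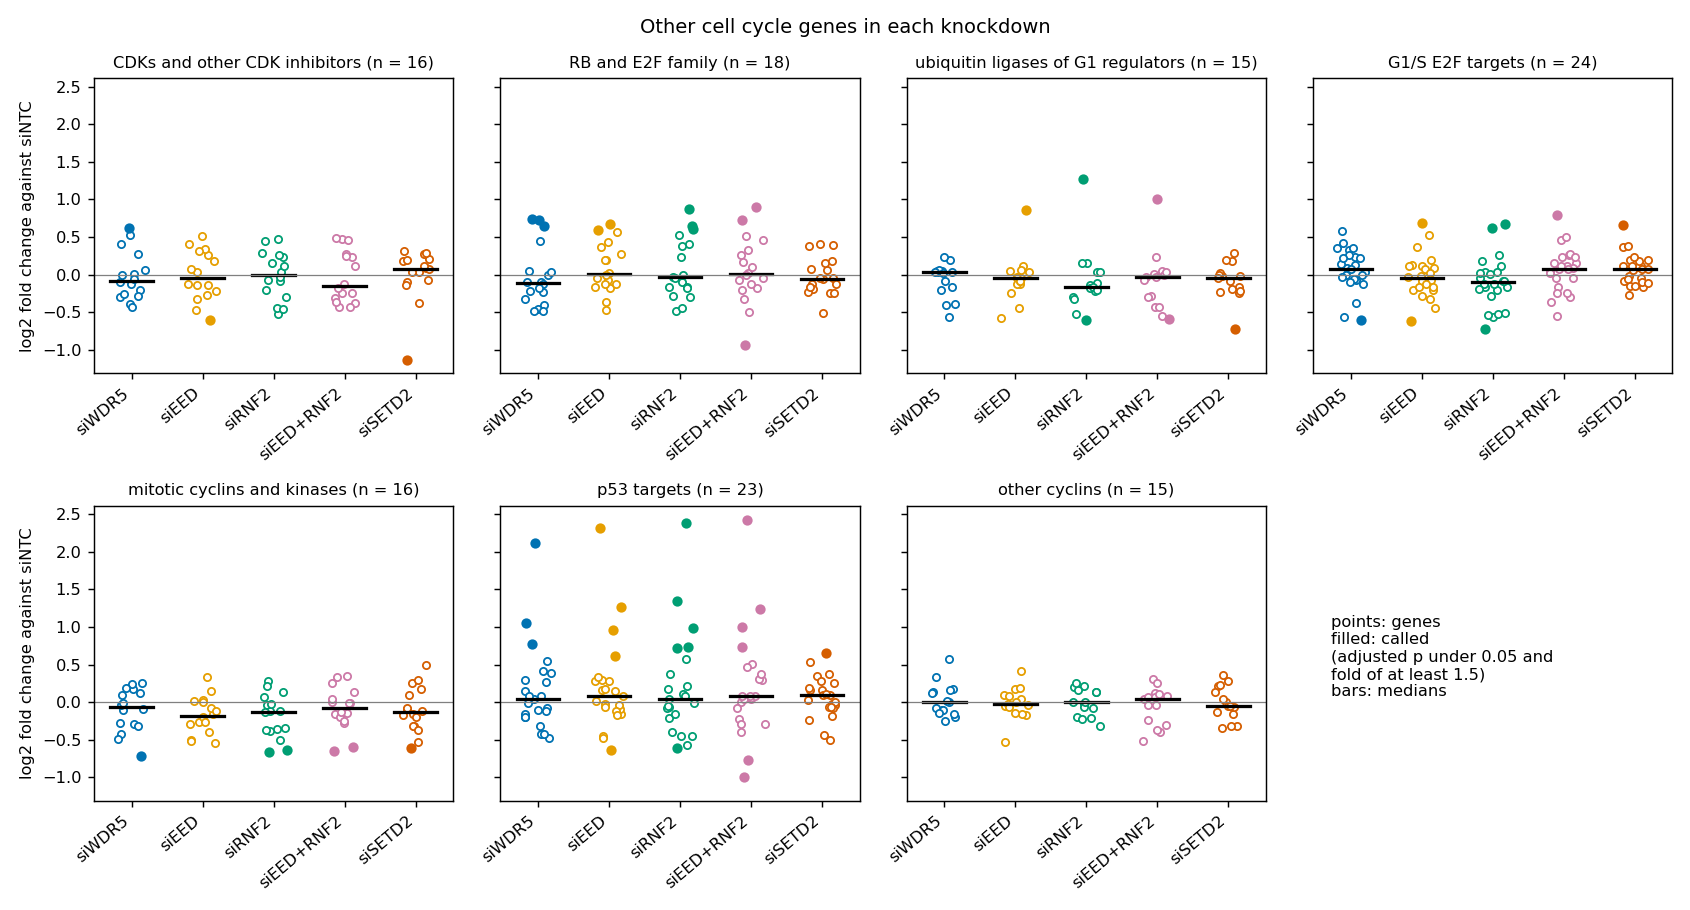
Differences from siNTC as log2 fold change (vertical axis) for the genes of 7 cell cycle lists in each of the 5 knockdowns (horizontal axis), with filled points for called genes and bars for list medians. Most genes lie near 0, and the highest point is SESN2 among the p53 targets, at 2.43 in siEED+RNF2.

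CDKN1A belongs by its regulation to the targets of p53. Among 23 other targets, the called genes were 3 under siWDR5, 5 under siEED, 6 under siRNF2, 6 under siEED+RNF2 and 1 under siSETD2. The shares of all genes called were 6.02%, 6.37%, 10.2%, 11.5% and 5.82% in that order. SESN2, a stress-induced regulator of mTORC1, rose by 2.12 under siWDR5, 2.32 under siEED, 2.39 under siRNF2 and 2.43 under siEED+RNF2. TP53INP1 rose in all 5, by 1.05, 1.27, 0.99 and 1.00 in that order and by 0.65 in siSETD2. TNFRSF10B, a death receptor, rose by 0.77, 0.96, 1.34 and 1.24. ZMAT3 was called higher in siEED (0.62) and siRNF2 (0.72). It read 0.55 in siWDR5, 0.51 in siEED+RNF2 and 0.54 in siSETD2, all short of the fold limit. DDB2 was called higher in siRNF2 (0.74) and siEED+RNF2 (0.73), and read -0.19 in siWDR5, 0.28 in siEED and -0.06 in siSETD2. PLK2 was -0.64 under siEED, RRM2B -0.61 under siRNF2 and -1.00 under siEED+RNF2, and MDM2 -0.77 under siEED+RNF2. The list medians lay between 0.04 and 0.10.

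A further list held 21 regulators of CDK inhibitors, with MYC, KLF and ID factors among others beside genes of the FOXO and TGF-beta pathways. In it TGFBR2, a TGF-beta receptor, was -1.05 under siEED, -1.04 under siRNF2, -1.08 under siEED+RNF2 and -0.85 under siSETD2. ID3, an inhibitor of basic helix-loop-helix factors, was -1.00, -0.81, -0.73 and -0.72 in the same knockdowns. KLF6 rose by 0.76 under siWDR5, 0.62 under siEED, 0.76 under siRNF2 and 0.66 under siEED+RNF2. KLF4, a known activator of CDKN1A, was called at 0.59 under siWDR5, 0.71 under siEED+RNF2 and 0.62 under siSETD2. It read 0.54 under siEED and 0.52 under siRNF2, short of the fold limit. FOXO4 was -0.85 and MYCN -0.68 in siRNF2, and SMAD3 was -0.85 in siSETD2.

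Markers of the pluripotent state moved beside the members in some knockdowns. LIN28A was -0.68 in siWDR5, and DNMT3B was -0.71 in siRNF2. In siEED+RNF2 L1TD1 was -1.08, LIN28B -0.90 and DNMT3B -0.62, and in siSETD2 L1TD1 rose by 0.67 and DPPA4 by 0.59. None was called in siEED. SOX2, SALL4, ZFP42 and UTF1 were called in no knockdown. The summed log2 level of the 9 markers was 100.03 under siNTC, 98.83 under siWDR5, 97.71 under siEED, 97.60 under siRNF2, 96.84 under siEED+RNF2 and 101.66 under siSETD2. That of the 17 differentiated cell markers lay between 87.78 and 89.22 over the 6 conditions. The part of these shifts in the members' values was not tested, and in bulk RNA fewer cells of a type and less RNA per cell cannot be told apart.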

How the data were processed

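The authors deposited a table of log2 values for 33297 transcript clusters on 12 arrays, and the submitters' notes name GCRMA and Partek without versions. Such values already carry background correction and normalization between arrays, which set the overall level of each array. Labelled RNA came from 250 ng per array, and read depth does not apply. Clusters were named through the platform annotation, updated by gene number: 12083 had no gene, 19460 had 1 gene and 1754 several (not named). The brightest cluster stood for a gene with several. With limma 3.58.1 (R 4.3.3), 1 model held the 6 condition means over the 12 arrays, with empirical Bayes moderation and adjustment over 18417 genes, and the fit was tested on simulated data. The methods name no test for the arrays. Named genes were the members, the siRNA targets, up to 4 called genes per list and knockdown with the largest change, all pluripotency markers and genes beside CDKN2A and CDKN2B, and the 3 genes most like each called member. MYCN, ZMAT3 and MDM2, RRM2B in siRNF2, DDB2 in siEED+RNF2, and the uncalled CDK2, CDK4, CDK6, CDKN1C, CDKN2D and RB1 were named after their values were seen. The members and lists were chosen with earlier results of these data known. Alternatives were another normalization, variance model, filter, reference, fold limit and block, fits of the compared groups alone, and leaving out each array. Figures used matplotlib 3.10.9 in Python 3.11.15.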

Additional observations from a re-analysis of the deposited data

Results flagged for a closer look

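The interaction of siEED and siRNF2 was called for 3 members, so the change of each under 1 siRNA differed with and without the other. It was -0.79 for CCND2, 0.75 for CCNE1 and -0.62 for CDKN2A on the log2 scale, and the dual knockdown was called against neither single knockdown for any of the 3. No outlier test applied, since each condition had 2 arrays.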

How the results depend on the processing

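Over 3053 recomputed member differences, those that left out no array gave 1262 on the same side of the threshold, 45 that gained a call, 16 that lost one and 2 called differences that reversed. Those that left out 1 array gave 1702, 11, 15 and 0. Of differences called neither before nor after, 16 and 22 changed sign. The called differences that reversed were CCND1 in siRNF2 (-0.37) and in siEED+RNF2 (-0.48) with the mean of other knockdowns as the reference. Under it the uncalled CCND1 in siEED (-0.52) and CCNE2 in siEED (0.17) and siSETD2 (0.52) changed sign too, and 1 member each was called in siWDR5, siEED and siRNF2. Without the fold limit members called against siNTC were 5 in siEED and 6 in siSETD2. They were 8 for siSETD2 against siWDR5, 7 against siRNF2, 4 for siRNF2 against siWDR5, 1 for siRNF2 against siEED, 4 and 2 for siEED+RNF2 against siEED and siRNF2, and 6 for the interaction. With arrays centred on the median over genes siRNF2 against siWDR5 called 1. Leaving out 1 array gave 2 to 4 members in siRNF2 (2 without siNTC replicate 1, which lost CCNE2 and CDKN2A), 2 to 3 in siEED, 3 to 4 in siEED+RNF2, 3 to 4 in siSETD2, 5 to 6 in siWDR5 and 2 to 3 for the interaction. A condition left with 1 array was assumed to vary like the others. Centring on the median over all clusters was chosen after seeing the data and gave siEED 3 calls. CDKN2B has no value under the filter on dim genes. The replicate numbers do not pair the arrays: deviations of same-numbered arrays correlated at -0.11 to 0.16 and passed 0.1 in 1 of 15 pairs of conditions. With the replicate number as a block, siWDR5 called 5 members, siEED 2, siRNF2 4, siEED+RNF2 4 and siSETD2 3, and no call of a member changed. With 2 arrays per condition and no detection calls, dim genes such as CDKN2B are the least certain.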
